A study of Mus musculus with 40 samples.

Results

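The effect of Pio on hepatic gene expression was compared between WT mice and liver-specific PPARγ knockout (KO) mice fed a high-fat diet (HFD). For each gene, the log2 fold change of HFD-Pio over HFD mice was taken within each genotype, and the WT effect was subtracted from the KO effect. A negative difference of Pio effects therefore means a lower response in KO than in WT mice. The comparison used 20 of the 40 mice of the study, in 4 groups of 5: WT on HFD, WT on HFD-Pio, KO on HFD and KO on HFD-Pio. All were males labelled C57BL6/J whose liver was collected at 5 months of age, after 3 months on a diet that took 60% of its calories from fat and contained either no Pio or Pio at 0.01% of weight. KO mice came from crossing PPARγ-loxP with Alb-Cre mice, in which the albumin promoter drives Cre in hepatocytes, so that liver cells in which Cre was never active keep the gene. The WT mice are described as C57BL6/J and not as littermates that carry the floxed allele or Cre. WT and KO libraries were counted in separate tables, so that Pio effects, but no levels, were compared between genotypes. Every mouse was a separate animal by its number.

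PPARγ is a nuclear receptor that binds DNA together with a retinoid X receptor (RXR) and turns on genes of lipid uptake and storage, most strongly in adipocytes. Pio, a thiazolidinedione, is an agonist of PPARγ. Hepatocytes contain little PPARγ in lean animals and more in fatty liver, where the receptor is known for driving genes of lipid droplets.

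The libraries held 15788242 to 49857017 counts in WT and 22615415 to 28334251 counts in KO mice. The 16 hepatocyte markers were all detected and summed to at least 87612 CPM (counts scaled to library size) in every mouse. A few libraries stood apart. WT HFD mouse 829 had 3.72% of its counts in mitochondrial mRNA, against 5.72% to 8.93% in the other WT mice on HFD or HFD-Pio. In KO HFD mouse 9 the neutrophil gene S100a8 stood at 95.8 CPM against 0.98 to 5.08 CPM in the rest of its group, and the acute phase gene Orm2 at 2833 CPM against 6.58 to 93.3 CPM. KO HFD mouse 10 held transcripts of pancreatic acinar cells, with Cela1 at 106 CPM against 5.39 to 27.8 CPM. Counts are therefore also given without mice 829 and 9. In bulk liver, fewer cells of a type and less RNA per cell cannot be told apart.

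Pparg, the targeted gene, was counted over the whole gene, which does not resolve the exons removed by Cre, so its level does not check the deletion. It stood at 10.9, 12.7, 12.1, 8.87 and 11.5 CPM in WT HFD mice and at 11.1, 12.5, 9.68, 11.2 and 7.45 CPM in WT HFD-Pio mice. In the KO table it stood at 7.15, 7.08, 8.5, 3.56 and 5.16 CPM on HFD and at 5.28, 9.68, 6.79, 6.1 and 8.42 CPM on HFD-Pio. The groups overlapped within each genotype, and the difference of Pio effects on Pparg was 0.30 ± 0.29 (log2, SE, edgeR adjusted p = 0.63).

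Pio changed hepatic gene expression in WT mice on HFD, had no called effect in KO mice, and differed in effect between the genotypes for 46 genes, among them Gprc5b, Cidec and Cfd, whose effect was lower in KO mice, and H2-Q7 and Fnbp4, whose effect was higher. Of 12477 genes tested, 682 rose (5.47%) and 865 fell (6.93%) in WT mice at an edgeR adjusted p of at most 0.05. With all 40 mice of both diets in 1 model, 78 rose and 62 fell, so that the larger share turned from fallen to risen genes. In 39 mice, without KO Pio mouse 13 of the control diet, 670 rose and 831 fell. Without a filter on low counts 467 rose and 478 fell. The 1547 WT calls were 976, 885 and 857 without WT HFD-Pio mouse 836, 837 or 839. In KO mice 0 genes passed (0%), with 210 at an unadjusted p under 0.05, while DESeq2 called 0, limma with sample weights 1, and edgeR with all 40 mice 2, both lower. The difference of Pio effects was called for 46 genes (0.369%), of which 26 were lower in KO mice (0.208%) and 20 higher (0.160%). All 46 also passed in WT mice, where the 26 rose and the 20 fell. The 95% interval of the KO effect covered 0 for 24 of the 26 and for 18 of the 20. The remaining 2 lower and 2 higher genes had an unadjusted p under 0.05 in KO mice, as did 210 of the 12477 genes tested. The KO effect is part of the difference by which the 46 genes were called, so these counts are a description. Among the 682 genes that rose in WT mice, the median Pio effect was 0.56 in WT and 0.02 in KO mice. Among the 865 that fell it was -0.57 in WT and -0.01 in KO mice. These genes were chosen by their WT effect, so the WT medians are a description.

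**Figure D1:**
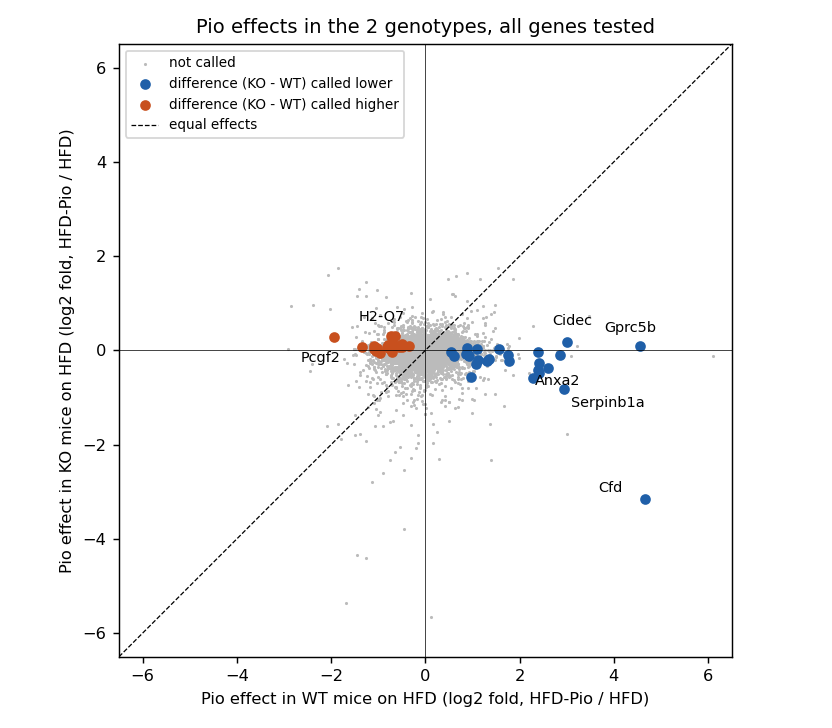
Pio effect on HFD in WT mice (horizontal axis, log2 fold of HFD-Pio over HFD) against that in KO mice (vertical axis, same scale) for the 12477 genes tested, with equal effects on the dashed line. The 26 blue genes, with a lower effect in KO mice, and the 20 orange genes, with a higher effect, lie near a KO effect of 0, apart from Cfd at -3.16.

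The number of called genes moved with single mice, while 13 genes were called whichever mouse was left out. When 1 of the 20 mice was dropped at a time, between 15 and 133 genes were called, the fewest without KO HFD-Pio mouse 17 and the most without WT HFD mouse 830. The 13 genes called in all 20 of these fits were Gprc5b, Kbtbd11, Gal3st1, Cidec, Osbpl3, Fam126a, Serpinb1a, Nt5e, Anxa2 and Abcc4, which had a lower effect in KO mice, and H2-Q7, Fnbp4 and Pkig, which had a higher one. Cfd, Bhlhb9 and Ermp1 were called in 19. Without mice 829 and 9, an alternative chosen after seeing the data, 326 genes were called, 149 lower and 177 higher, including all 46. In a model of all 40 mice 12 genes were called, 12 lower and 0 higher, and DESeq2 and limma with sample weights called 297 and 386, including all 46. Of the 20 higher genes, 0 were called in the model of 40 mice and 1 in 39 mice, against 10 and 14 of the 26 lower genes.

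**Figure D2:**
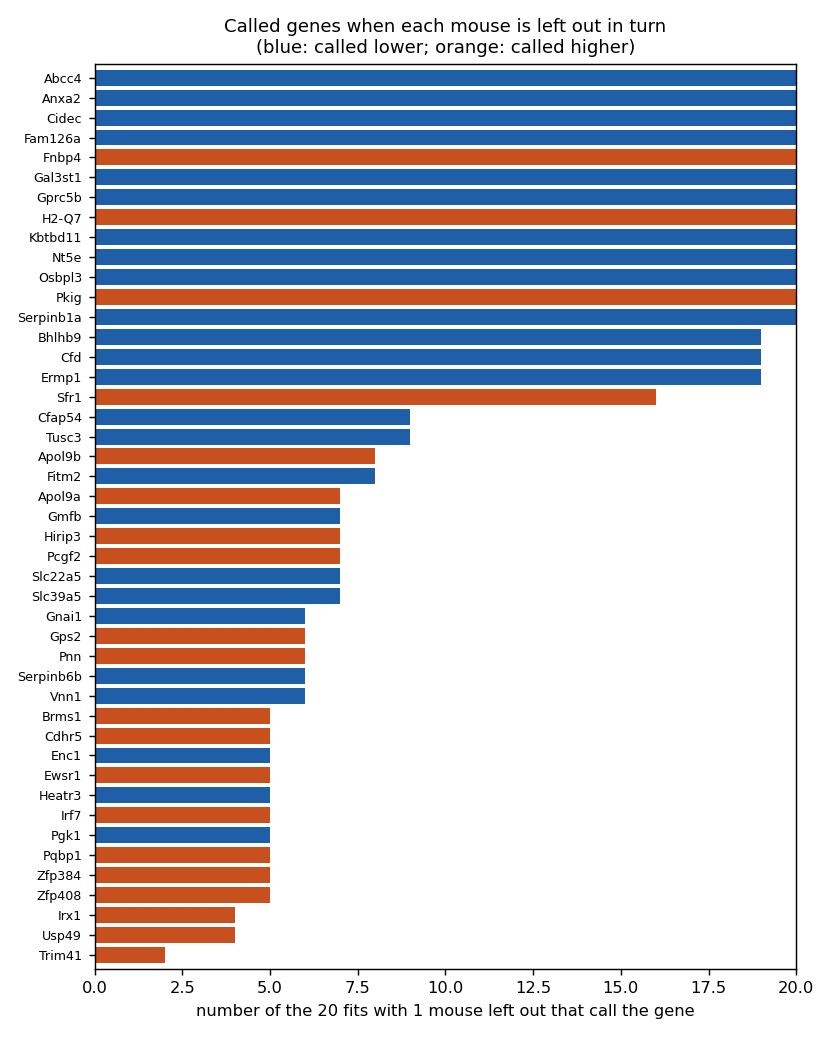
Number of the 20 fits with 1 mouse left out (horizontal axis) in which each of 45 of the 46 genes (vertical axis) was called again. The 10 blue genes (lower effect in KO) and 3 orange genes (higher effect) at 20 were called in every fit, and 12 blue and 16 orange genes were called in fewer than 10. Cfap54, 1 of these blue genes, was not tested in the fits without a WT HFD-Pio mouse, where it missed the filter on low counts.

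Of the called genes, Cidec, Cfd and Fitm2 were members of a list of known PPARγ targets. Cidec (chromosome 6, 113424634 to 113435760, minus strand, GRCm38), which encodes a protein that fuses lipid droplets, stood at 7.63, 18.7, 7.66, 15.9 and 8.44 CPM in WT HFD mice and at 113, 125, 52.2, 96 and 81.1 CPM in WT HFD-Pio mice. In KO mice it stood at 2.74, 3.31, 1.93, 2.36 and 3.73 CPM on HFD and at 2.57, 2.94, 2.75, 2.44 and 5.25 CPM on HFD-Pio. All 5 WT HFD-Pio mice lay above all 5 WT HFD mice, whereas the KO groups overlapped. The WT groups were apart in all 26 lower genes and the KO groups in 0. Over all tested genes the groups were apart, in either direction, in 7.37% in WT and 0.641% in KO mice. For each lower gene described here and below, this separation follows from the choice of the genes by the same values and is a description. The Pio effect was 3.00 ± 0.29 (log2, SE) in WT and 0.19 ± 0.31 in KO mice, a difference of -2.81 ± 0.42 (95% interval -3.69 to -1.93, edgeR adjusted p = 0.00516).

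The 250 bases before the RefSeq start of Cidec are shown because Cidec was the lipid droplet gene called with every mouse left out (GRCm38.p6, chr6:113435761-113436010, minus strand, in the direction of the gene).
Cidec: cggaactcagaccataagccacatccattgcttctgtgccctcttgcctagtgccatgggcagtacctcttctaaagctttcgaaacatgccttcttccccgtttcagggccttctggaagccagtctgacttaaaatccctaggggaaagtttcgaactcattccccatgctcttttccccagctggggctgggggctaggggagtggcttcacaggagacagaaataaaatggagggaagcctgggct
PPARγ and RXR are known to bind a pair of half-sites AGGTCA spaced by 1 base, AGGTCANAGGTCA. Neither the half-site nor the pair was found on either strand in windows from 250 bases before to 50 after the RefSeq starts of the 19 lower genes with such a window, which include Cidec. Of the 9535 tested genes with a window, 15.6% held the half-site and 0.0315% the pair. No match says only that these letters are not in the window.

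Cfd (chromosome 10, 79890853 to 79892655, plus strand), which encodes adipsin, a complement protease made mainly by adipocytes, had the lowest difference of the called genes. It stood at 6.26, 38.1, 5, 3.04 and 3.57 CPM in WT HFD and at 372, 470, 83.4, 234 and 253 CPM in WT HFD-Pio mice, with no overlap. The KO mice had 1.31, 0.322, 0.193, 0.959 and 2.77 CPM on HFD and 0.206, 0, 0.0808, 0.0381 and 0.252 CPM on HFD-Pio, the latter from 6, 0, 2, 1 and 7 counts. The fitted KO effect of -3.16 ± 1.24 thus rests on few reads and was not called after adjustment, and the KO groups overlapped (2-sided exact permutation p = 0.0238, unadjusted). The called difference of Cfd contains this KO effect, so that p-value is a description. The difference was -7.82 ± 1.34 (edgeR adjusted p = 0.014), and -7.17 with an adjusted p of 0.0508 without KO HFD mouse 10 (3.53e-07 to 0.0508 over all alternatives). Of the defining adipocyte genes, Adipoq, Plin1 and Lep had group means of at most 0.3, 0.276 and 0.0664 CPM. The adipogenic gene Fabp4 had group means of 11.4 to 23 CPM. WT HFD mouse 827 was the highest of its group in both Cfd and Fabp4, at 38.1 and 37.3 CPM. The part of adipocytes in the Cfd result was not tested.

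Fitm2, a protein of the endoplasmic reticulum that is needed for lipid droplet formation, was the third called member of this list. It stood at 45.7 to 58.5 CPM in WT HFD, 70.6 to 109 CPM in WT HFD-Pio, 29 to 40.4 CPM in KO HFD and 33.1 to 41.6 CPM in KO HFD-Pio mice. The Pio effect was 0.87 ± 0.12 in WT and 0.04 ± 0.12 in KO mice, a difference of -0.83 ± 0.17 (edgeR adjusted p = 0.0377) that was called in 8 of the 20 fits with a mouse left out.

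The other genes that the study follows as PPARγ targets did not pass for the difference. Cd36, a fatty acid transporter, rose in WT mice from 22.9, 28, 32.5, 49.3 and 42.9 CPM to 158, 185, 93.1, 153 and 107 CPM. KO mice had 22.3, 20.9, 25.5, 55 and 28 CPM on HFD and 53.6, 44.8, 24.7, 29.3 and 29.3 CPM on HFD-Pio. The WT groups did not overlap and the KO groups did, and the difference of -1.73 ± 0.40 missed the threshold (edgeR adjusted p = 0.0608) but passed it without mice 829 and 9, at -1.55 (adjusted p = 0.0285, 0.00346 to 0.484 over all alternatives). Plin4, a lipid droplet coat protein, rose in WT mice from 26.3, 63, 29.9, 47 and 36.7 CPM to 120, 164, 75.8, 120 and 88.7 CPM, without overlap. It had 4.09 to 7.87 and 2.4 to 8.17 CPM in the KO groups, a difference of -1.62 ± 0.41 (edgeR adjusted p = 0.0855, 0.00949 to 0.214 over all alternatives). Mogat1, an enzyme of diacylglycerol synthesis, rose in WT mice by 2.21 ± 0.38, and had 3 to 9 and 1 to 7 counts in the KO groups. Its difference was -2.69 ± 0.73 (edgeR adjusted p = 0.0963), or -3.37 (adjusted p = 0.0169, 0.0134 to 0.371 over all alternatives) without mice 829 and 9. Fabp4, a fatty acid carrier, and Cav1, the coat protein of caveolae, passed no test in either genotype, with differences of -0.97 (95% interval -2.68 to 0.74) and -0.32 (-1.16 to 0.52).

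Cidea, a lipid droplet protein related to Cidec and named here after its values were seen, rose most of all these genes in WT mice. It stood at 0.776, 1.74, 0.799, 0.848 and 0.713 CPM in WT HFD mice and at 75.8, 154, 22, 71.6 and 11.4 CPM in WT HFD-Pio mice, an effect of 6.11 ± 0.60 (edgeR adjusted p = 8.61e-06). The KO mice had 0, 1, 0, 1 and 1 counts on HFD and 0, 0, 1, 0 and 2 counts on HFD-Pio, too few for a fold. The difference was not called (edgeR adjusted p = 0.442), and the 95% interval of the fitted KO effect ran from -5.37 to 5.15. DESeq2 called it (adjusted p = 0.0051), and the adjusted p ranged from 0.0051 to 0.772 over the alternatives.

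**Figure D3:**
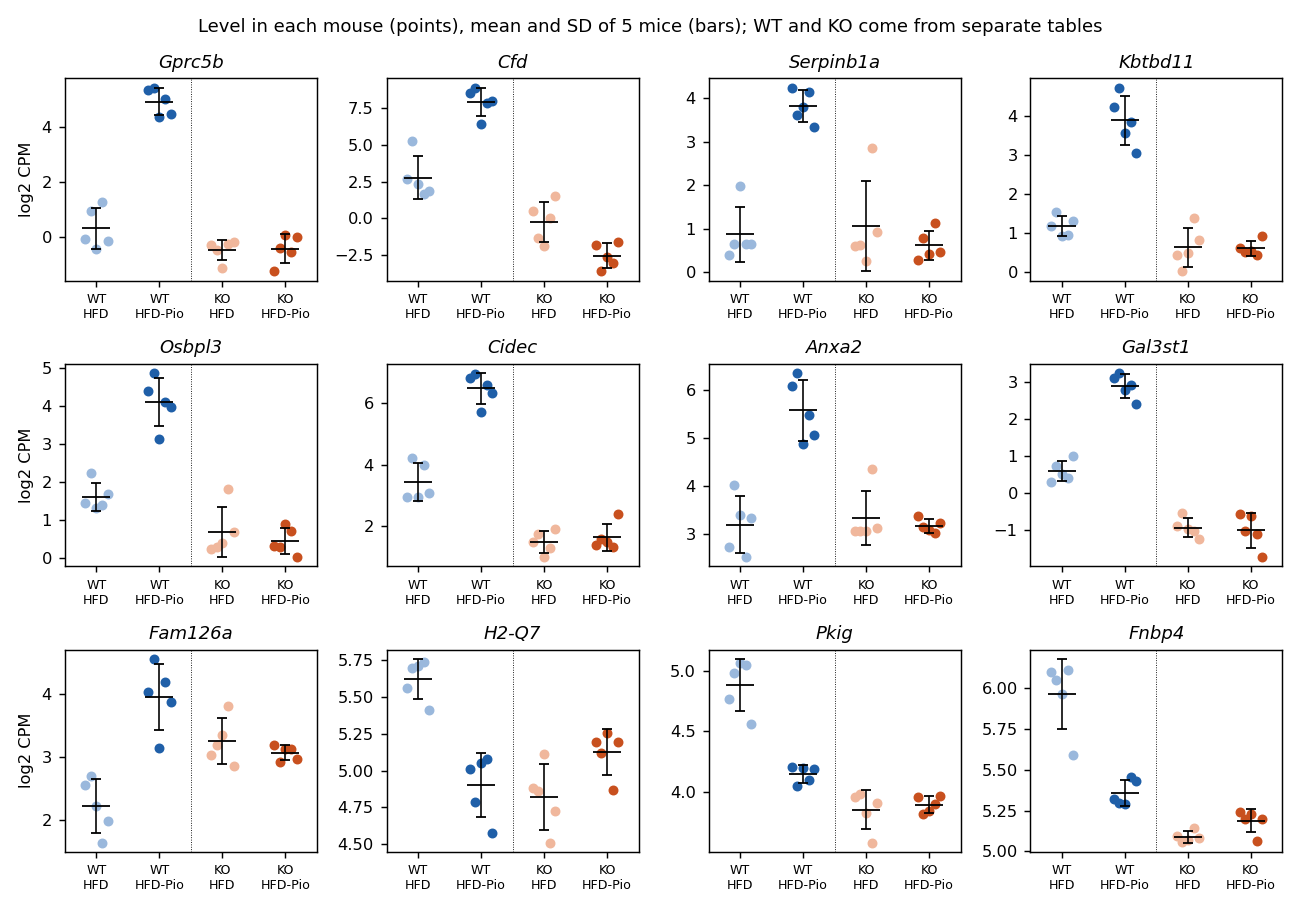
Level in each mouse (points, log2 CPM with a prior count of 2) of 12 genes in the 4 groups of 5 mice, with the mean and SD as bars and a scale of its own for each gene. From Gprc5b to Fam126a the WT HFD-Pio mice lie above the WT HFD mice, in H2-Q7, Pkig and Fnbp4 they lie below, and the KO groups overlap in all 12.

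Gprc5b (chromosome 7, 118972047 to 118995211, minus strand), an orphan G protein-coupled receptor, had the smallest p-value of the difference over all genes. It stood at 0.868, 1.86, 0.666, 2.34 and 0.832 CPM in WT HFD and at 39.6, 42.5, 20.5, 31.7 and 21.9 CPM in WT HFD-Pio mice, a 23.5-fold rise. KO mice had 0.735, 0.644, 0.386, 0.759 and 0.797 CPM on HFD and 0.343, 0.686, 0.969, 0.61 and 0.935 CPM on HFD-Pio, and these groups overlapped. The Pio effect was 4.56 ± 0.32 in WT and 0.09 ± 0.38 in KO mice, a difference of -4.47 ± 0.50 (edgeR adjusted p = 0.000192), which lay between -4.81 and -4.29 with any mouse left out. Gprc5b passed the filter on low counts mainly through the WT HFD-Pio mice, and was not tested with the filter applied in each genotype. It overlaps Iqck in the annotation, and the strand setting of the counts is not given in the sources used here.

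The 250 bases before the RefSeq start of Gprc5b are shown because it led the comparison (GRCm38.p6, chr7:118995212-118995461, minus strand, in the direction of the gene).
Gprc5b: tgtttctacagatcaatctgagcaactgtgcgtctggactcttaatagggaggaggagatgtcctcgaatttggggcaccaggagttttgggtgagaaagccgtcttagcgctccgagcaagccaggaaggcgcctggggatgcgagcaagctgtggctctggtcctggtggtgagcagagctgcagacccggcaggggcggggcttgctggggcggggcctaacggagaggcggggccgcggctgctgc
As in Cidec, the half-site was not found.

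Anxa2 (chromosome 9, 69453620 to 69491795, plus strand), a calcium-dependent phospholipid-binding protein, had 6.48, 16.2, 10.3, 5.63 and 9.92 CPM in WT HFD and 67.7, 81.2, 29.4, 44.5 and 33.3 CPM in WT HFD-Pio mice. In KO mice it had 8.21, 8.28, 8.19, 20.3 and 8.64 CPM on HFD and 10.3, 8.67, 8.32, 8 and 9.28 CPM on HFD-Pio. The WT groups were apart, and the highest KO HFD value, 20.3 CPM, was that of mouse 9. The difference was -2.68 ± 0.45 (edgeR adjusted p = 0.01), or -2.17 (adjusted p = 0.0118, 1.92e-06 to 0.399 over all alternatives) without mice 829 and 9. Osbpl3, an oxysterol-binding protein of membrane contacts, stood at 2.4 to 4.61 CPM in WT HFD, 8.79 to 29.3 CPM in WT HFD-Pio, 1.1 to 3.44 CPM in KO HFD and 0.935 to 1.78 CPM in KO HFD-Pio mice, a difference of -2.96 ± 0.47 (edgeR adjusted p = 0.00757).

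Gal3st1 (chromosome 11, 3983636 to 3999326, plus strand), the sulfotransferase that makes sulfatide from galactosylceramide, had 1.14, 1.56, 1.33, 1.25 and 1.9 CPM in WT HFD and 8.61, 9.37, 6.83, 7.48 and 5.23 CPM in WT HFD-Pio mice. In KO mice it had 0.449, 0.598, 0.425, 0.4 and 0.336 CPM on HFD and 0.583, 0.403, 0.565, 0.381 and 0.216 CPM on HFD-Pio. Its WT groups were apart, its KO groups were not, and the difference was -2.43 ± 0.35 (edgeR adjusted p = 0.00329). Fam126a, a subunit of the complex that holds phosphatidylinositol 4-kinase at the plasma membrane, had 3.04 to 6.4 CPM in WT HFD, 8.73 to 23.4 CPM in WT HFD-Pio, 7.17 to 13.9 CPM in KO HFD and 7.5 to 9.05 CPM in KO HFD-Pio mice, a difference of -1.999 ± 0.32 (edgeR adjusted p = 0.00757). Gnai1, an inhibitory G protein subunit, had a difference of -2.88 ± 0.59 (edgeR adjusted p = 0.0392) and was called in 6 of the 20 fits with a mouse left out.

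Nt5e, the ectoenzyme CD73 that makes adenosine from AMP, stood at 6.03, 7.9, 8.93, 5.88 and 6.89 CPM in WT HFD and at 20.4, 22.5, 13.6, 18.8 and 12.4 CPM in WT HFD-Pio mice. The KO groups had 3.59 to 5.67 and 3.07 to 4.64 CPM, and the difference was -1.54 ± 0.26 (edgeR adjusted p = 0.00889). Abcc4, an efflux transporter of bile acids and nucleotides, stood at 1.37, 1.56, 1.13, 1.15 and 1.13 CPM in WT HFD and at 5.17, 6.06, 2.59, 4.31 and 3.15 CPM in WT HFD-Pio mice, with 2.82 to 5.27 and 2.91 to 4.15 CPM in the KO groups, a difference of -1.86 ± 0.32 (edgeR adjusted p = 0.01). The WT groups of both genes were apart and the KO groups overlapped. Slc22a5, the carnitine transporter, had a difference of -0.74 ± 0.15 (edgeR adjusted p = 0.0392), and the zinc transporter Slc39a5 one of -1.54 ± 0.33 (adjusted p = 0.0442). Each was called in 7 of the 20 fits with a mouse left out.

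Serpinb1a, an inhibitor of neutrophil proteases, had 1.23, 1.5, 3.86, 1.5 and 1.49 CPM in WT HFD and 18.9, 12.2, 13.8, 17.6 and 10.1 CPM in WT HFD-Pio mice. In KO mice it had 1.43, 1.47, 1.12, 7.19 and 1.8 CPM on HFD and 1.13, 1.65, 1.25, 2.1 and 1.3 CPM on HFD-Pio. Its highest KO HFD value, 7.19 CPM, was that of mouse 9, in which the 10 neutrophil markers summed to 513 CPM. The difference was -3.76 ± 0.61 (edgeR adjusted p = 0.00841), and -2.85 (adjusted p = 0.00341, 4.43e-07 to 0.0353 over all alternatives) without mice 829 and 9. Kbtbd11, a protein with kelch repeats and a BTB domain, had 2.19, 2.81, 1.8, 1.84 and 2.38 CPM in WT HFD and 18.8, 26.7, 11.8, 14.3 and 8.3 CPM in WT HFD-Pio mice. Its KO groups, at 0.92 to 2.52 and 1.26 to 1.8 CPM, overlapped, and the difference was -2.96 ± 0.40 (edgeR adjusted p = 0.00186).

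Vnn1, a pantetheinase and known PPARα target, stood at 80.1, 61.6, 73.3, 53.8 and 76.5 CPM in WT HFD and at 202, 194, 150, 193 and 138 CPM in WT HFD-Pio mice. The KO mice had 13.4, 17.6, 18.4, 6.71 and 19.8 CPM on HFD and 8.36, 14.1, 15.4, 14.5 and 14.8 CPM on HFD-Pio. Its WT groups were apart and its KO groups overlapped, and the difference was -1.52 ± 0.31 (edgeR adjusted p = 0.0392). Pgk1, a glycolytic enzyme with pseudogenes that can take its reads, had a difference of -1.06 ± 0.23 (adjusted p = 0.0487), Ermp1, a metallopeptidase of the endoplasmic reticulum, one of -1.38 ± 0.26 (adjusted p = 0.0228), and Enc1, an actin-associated protein, one of -1.31 ± 0.28 (adjusted p = 0.0442). Vnn1, Pgk1 and Enc1 were called in 6, 5 and 5 of the 20 fits with a mouse left out. The other lower genes named here were Cfap54, Bhlhb9, Serpinb6b, Gmfb, Tusc3 and Heatr3, with differences from -2.89 to -0.58.

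The 20 genes with a higher effect in KO mice had Pio effects from -1.93 to -0.35 in WT and from -0.05 to 0.32 in KO mice. These effects and the separation of the groups follow from the choice of the genes by the same values and are a description. In 19 of the 20 the WT HFD-Pio mice lay entirely below the WT HFD mice, where 7.37% of all tested genes had WT groups apart in either direction. The KO groups were apart in 0 of the 20, against 0.641% of all genes.

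H2-Q7 (chromosome 17, 35439155 to 35443773, plus strand), a non-classical MHC class I gene of a family of close copies that can share reads, stood at 47.2, 51.9, 52.2, 53.2 and 42.5 CPM in WT HFD and at 32.2, 27.5, 33.1, 33.8 and 23.7 CPM in WT HFD-Pio mice. In KO mice it stood at 29.5, 29, 34.6, 22.7 and 26.4 CPM on HFD and at 36.5, 34.7, 38.1, 29.1 and 36.6 CPM on HFD-Pio. The WT groups did not overlap and the KO groups did. The Pio effect was -0.72 ± 0.12 in WT and 0.30 ± 0.12 in KO mice, the latter not called after adjustment (exact permutation p = 0.0317, unadjusted). H2-Q7 was chosen by a difference that contains this KO effect, so that p-value is a description. The difference was 1.02 ± 0.17 (edgeR adjusted p = 0.00839).

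Apol9b and Apol9a, paralogs inducible by interferon whose reads cannot be fully separated, had differences of 1.18 ± 0.24 and 1.11 ± 0.23 (edgeR adjusted p = 0.0392 and 0.0439). Apol9b stood at 49.8, 77.4, 60, 49.9 and 39.6 CPM in WT HFD and at 29.9, 24, 23.9, 23.6 and 28.1 CPM in WT HFD-Pio mice, which did not overlap. The KO mice had 39.7, 39.9, 50.2, 28.7 and 53 CPM on HFD and 52.6, 43.8, 34.5, 48 and 45.8 CPM on HFD-Pio, which did. Irf7, a transcription factor of the interferon response, had 64.8, 61.6, 61.9, 74.4 and 43.7 CPM in WT HFD and 31.4, 38.5, 31.4, 44.1 and 31.5 CPM in WT HFD-Pio mice. It was the only higher gene whose WT groups overlapped, its KO groups had 27.4 to 43.5 and 35 to 41.8 CPM, and the difference was 0.90 ± 0.20 (edgeR adjusted p = 0.0487). Apol9b, Apol9a and Irf7 were called in 8, 7 and 5 of the 20 fits with a mouse left out.

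The bases before the RefSeq starts of H2-Q7 and Apol9b are shown because the half-site AGGTCA, found in 0 of the 19 windows of the lower genes, was found in 8 of the 18 higher genes with a window, against 15.6% of the tested genes (GRCm38.p6, plus strand, chr17:35438905-35439154 and chr15:77728822-77729071). Capitals mark AGGTCA and, in Apol9b, also GAAA repeated after 2 bases, the core of the interferon-stimulated response element, on either strand.
H2-Q7: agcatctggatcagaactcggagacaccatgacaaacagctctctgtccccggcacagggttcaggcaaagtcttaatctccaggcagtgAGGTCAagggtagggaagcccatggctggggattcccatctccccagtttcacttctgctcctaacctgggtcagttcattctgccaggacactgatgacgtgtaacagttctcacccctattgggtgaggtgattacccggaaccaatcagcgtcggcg
Apol9b: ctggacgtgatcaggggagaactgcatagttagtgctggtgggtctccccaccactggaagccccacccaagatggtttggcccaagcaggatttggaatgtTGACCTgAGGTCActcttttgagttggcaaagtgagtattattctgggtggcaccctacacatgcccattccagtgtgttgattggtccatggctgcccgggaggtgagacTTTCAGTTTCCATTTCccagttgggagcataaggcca
Apol9b holds the half-site once on each strand, spaced by 1 base, and 2 overlapping matches of the interferon element. That element was found in 3 of the 18 windows, those of Apol9a, Apol9b and Usp49, and in 3.86% of the tested genes. The pair AGGTCANAGGTCA was in 0 of the 18. A match is a description of the letters, and windows of paralogs are not independent.

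Fnbp4, a protein with WW domains, had 68.6, 66.2, 62.4, 69.2 and 48.2 CPM in WT HFD and 39.9, 39.2, 39, 43.9 and 43.2 CPM in WT HFD-Pio mice. Its KO groups, at 33.2 to 35.3 and 33.4 to 37.8 CPM, overlapped, and the difference was 0.72 ± 0.12 (edgeR adjusted p = 0.0109). Pcgf2, a Polycomb subunit, had a difference of 1.397 ± 0.29 (edgeR adjusted p = 0.0392), with WT HFD mouse 829 at 55.1 CPM against 22.6 to 31.7 CPM in the rest of its group. Gps2, a subunit of the NCoR corepressor complex, had a difference of 1.06 ± 0.22 (adjusted p = 0.0442), and mouse 829 was again highest, at 76.9 CPM against 35.2 to 43.3 CPM. Without mice 829 and 9 these differences were 1.13 and 0.79 (edgeR adjusted p = 0.0139 and 0.00575, 0.00138 to 0.622 and 0.0027 to 0.32 over all alternatives). Brms1, a subunit of a histone deacetylase complex, had a difference of 0.86 ± 0.19, the HIRA-interacting Hirip3 one of 0.92 ± 0.19, and the recombination factor Sfr1 one of 0.89 ± 0.17, with edgeR adjusted p-values of 0.0487, 0.0439 and 0.0243. The splicing-associated Pnn and Pqbp1, the RNA-binding Ewsr1, the zinc finger proteins Zfp384 and Zfp408, the deubiquitinase Usp49 and the ubiquitin ligase Trim41 had differences from 0.45 to 0.96.

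Pkig, an inhibitor of protein kinase A, had 27.2, 31.6, 33.3, 33 and 23.6 CPM in WT HFD and 18.4, 16.4, 18.3, 17.1 and 18.2 CPM in WT HFD-Pio mice. In KO mice it had 15.5, 15.8, 14.1, 11.9 and 14.9 CPM on HFD and 15.5, 14, 14.3, 14.8 and 15.6 CPM on HFD-Pio. The WT groups were apart, the KO groups overlapped, and the difference was 0.79 ± 0.14 (edgeR adjusted p = 0.0134). Cdhr5, a cadherin of brush borders, had a difference of 1.03 ± 0.22 (adjusted p = 0.0473), and the homeobox gene Irx1 one of 2.21 ± 0.49 (adjusted p = 0.0487) from levels of at most 4.34 CPM. The median GC content was 50.9% for the 20 higher genes, 44.2% for the 26 lower genes and 45.9% for all tested genes, and the part of base composition in the result was not tested.

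Gene lists of pathways were then read against the calls over all genes, and against the 7.13% of genes that were lower and the 8.68% that were higher at an unadjusted p under 0.05. Of 34 PPARγ targets of fatty liver, 29 were tested, 3 were called lower (Cidec, Cfd and Fitm2) and 0 higher. At an unadjusted p under 0.05, 11 were lower and 0 higher, and the median difference was -0.55, against 0.00 over all genes. Without mice 829 and 9 the median was -0.46 and 8 members were called lower. The list was drawn up with earlier results of these data known, so its direction is not independent evidence. Its members below the threshold included Vldlr, a lipoprotein receptor, at -1.65 ± 0.49 (edgeR adjusted p = 0.129), and Slc27a1, a fatty acid transporter, at -0.80 ± 0.21 (adjusted p = 0.0898), both named after their values were seen.

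Of the PPARα targets, 1 of 26 tested was called lower (Vnn1) and 0 higher, with 8 lower and 0 higher at an unadjusted p under 0.05 and a median difference of -0.36. Without mice 829 and 9 the median was -0.42, and 6 members were called lower and 0 higher. In WT mice 11 members rose and 2 fell, where 5.47% and 6.93% of all tested genes did, and in KO mice 0 were called.

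Of the genes of mitochondrial fatty acid oxidation, 0 of 26 were called, 9 were lower and 0 higher at an unadjusted p under 0.05, and the median difference was -0.25. Hadhb, the β subunit of the trifunctional protein, had the smallest p-value, with a Pio effect of 0.69 ± 0.12 in WT and 0.04 ± 0.12 in KO mice and a difference of -0.65 ± 0.16 (edgeR adjusted p = 0.0851). Peroxisomal genes had 0 of 40 called, 12 lower and 1 higher at an unadjusted p under 0.05, and a median of -0.21. Without mice 829 and 9, 5 mitochondrial and 7 peroxisomal members were called lower and 0 higher. Triglyceride synthesis had 0 of 19 called, 5 lower and 1 higher at an unadjusted p under 0.05, and Agpat9, an acyltransferase of its first step, at -1.68 ± 0.45 (edgeR adjusted p = 0.0963).

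Other mitochondrial genes had median differences near 0. For oxidative phosphorylation it was 0.04, with 0 of 78 called, 8 lower and 0 higher at an unadjusted p under 0.05. The median Pio effect of these genes was 0.13 in WT and 0.14 in KO mice, and 11 of the 78 members rose in WT mice, where 5.47% of all tested genes did. Atp5e, a subunit of ATP synthase, had the smallest p-value there, at -0.97 ± 0.25 (edgeR adjusted p = 0.0911). The mitochondrial ribosome had a median of 0.02 with 0 of 74 called, and the tricarboxylic acid cycle a median of -0.09 with 0 of 25 called.

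The interferon response had 1 of 38 called higher (Irf7) and 0 lower, 5 higher and 0 lower at an unadjusted p under 0.05, and a median difference of 0.22. The 5 were Irf7, Bst2 at 0.50, Isg15 at 0.78, Stat2 at 0.47 and Irf9 at 0.31. Receptors and coactivators of the PPAR and RXR group had 0 of 17 called and a median of 0.21. Bile acid genes and NRF2 targets had 1 called lower each, in both cases Abcc4, and glycolysis had 1, Pgk1. Gluconeogenesis, de novo lipogenesis, cholesterol synthesis, the unfolded protein response, the cell cycle, cytochrome P450 genes, the acute phase, fibrosis, the clock, immediate early genes and growth hormone targets had 0 called, with medians from -0.33 for the cell cycle to 0.60 for immediate early genes. At an unadjusted p under 0.05, gluconeogenesis had 6 of 21 members lower and 0 higher, with a median of -0.28. Without mice 829 and 9 that median was -0.36 and 1 member was called lower. Fibrosis had 4 of 28 lower and 0 higher, cytochrome P450 genes 5 of 31 lower and 2 higher, and immediate early genes 4 of 17 higher and 0 lower at that threshold. The cell cycle median was 0.14 without mice 829 and 9. Among the immediate early genes Myc had the smallest p-value, with a difference of 2.90 ± 0.82 (edgeR adjusted p = 0.114) from 2.66 to 28.6 CPM in WT HFD, 2.19 to 3.59 CPM in WT HFD-Pio, 3.35 to 9.31 CPM in KO HFD and 3.63 to 24.4 CPM in KO HFD-Pio mice.

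**Figure D4:**
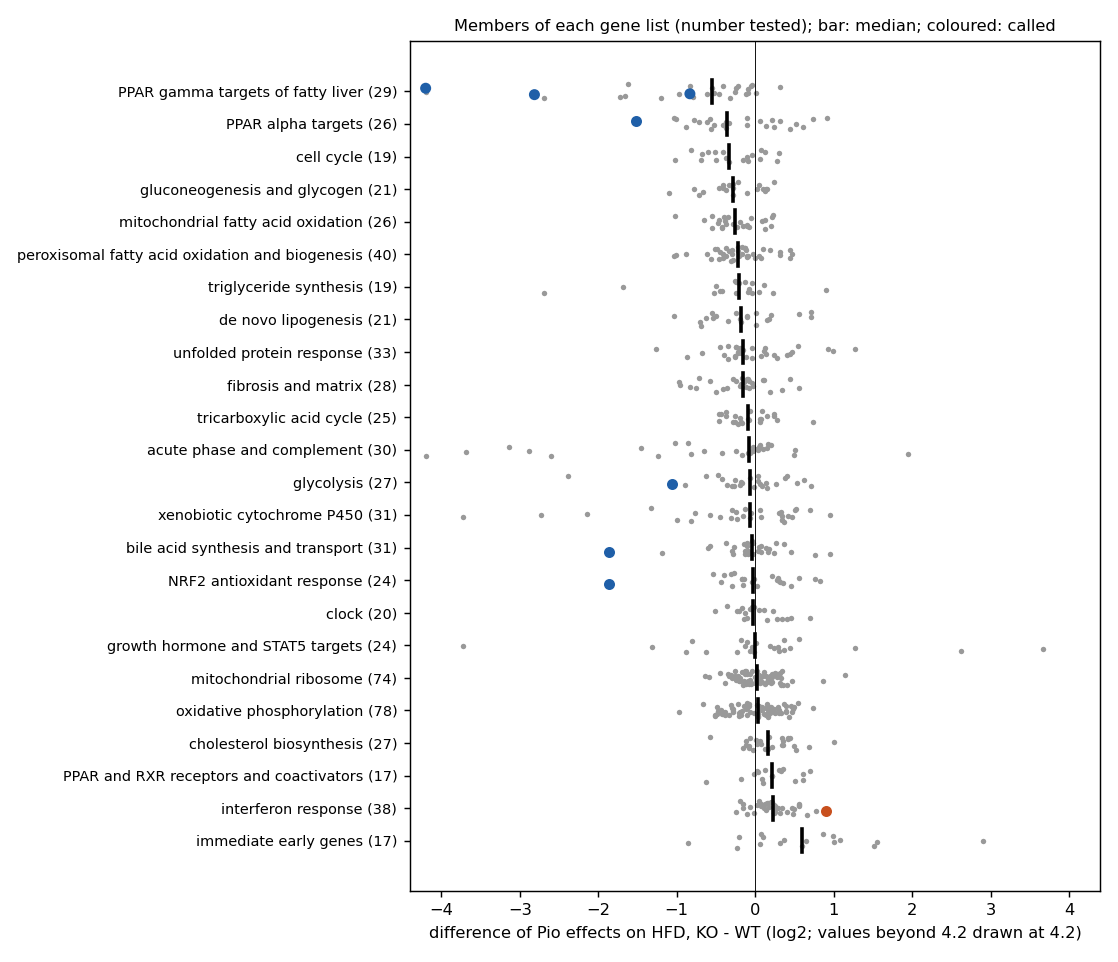
Difference of Pio effects on HFD (horizontal axis, KO minus WT, log2, values beyond 4.2 drawn at 4.2) for the tested members of each pathway list (vertical axis, number tested in brackets), with the median of each list as a bar. Coloured points are called members (blue lower, orange higher), and the lowest medians are those of the PPARγ targets at -0.55 and the PPARα targets at -0.36.

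Markers of other cells of the liver were counted in the same way. The lists of hepatocytes, Kupffer cells and macrophages, T and NK cells, B cells, neutrophils, endothelial cells, stellate cells, cholangiocytes, blood and pancreatic acinar cells had 0 members called, and no skeletal muscle marker passed the filter on low counts. At an unadjusted p under 0.05, 5 of 16 hepatocyte markers were higher and 1 was lower, 3 of 14 endothelial markers were lower and 0 higher, and 2 of 7 cholangiocyte markers were higher and 0 lower, with median differences of 0.17, -0.25 and 0.37. The hepatocyte median was -0.03 without mice 829 and 9, and 1 of 17 Kupffer cell and macrophage markers was then called higher, with a median of 0.38 in place of 0.02. Blood had 1 of 7 markers higher and 0 lower at an unadjusted p under 0.05, and a median of 0.42, or 1.29 without these mice. B cells and neutrophils, with 3 markers tested each, had medians of -0.78 and -1.70, or -0.60 and 1.24 without these mice. The part of these cells in the results was not tested. The adipocyte list had 2 of 7 tested members called, Cidec and Cfd, which the PPARγ list also holds, and 7 of its 14 members, Adipoq, Plin1 and Lep among them, did not pass the filter. The median difference of its tested members was -0.69, or -0.39 without mice 829 and 9, and 5 of the 7 were below 0. Their median Pio effect was 0.85 in WT and -0.07 in KO mice. The part of adipocytes was not tested either. Neutrophil markers summed to 6.42 to 27.8 CPM in WT HFD, 5.92 to 12 CPM in WT HFD-Pio, 6.45 to 513 CPM in KO HFD and 11.8 to 30.4 CPM in KO HFD-Pio mice, with the top value in mouse 9. Without mice 829 and 9, the uncalled difference of S100a8 was 1.24 in place of -2.08, and that of Orm2 -2.28 in place of -5.79.

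The same difference was computed on the control diet, in 20 mice that share no animal with the HFD groups. There 58 of 12598 genes were called (0.460%), or 471 of 12547 (3.75%) without KO Pio mouse 13, whose library stood apart. Of the 26 lower genes, 21 had a negative difference on the control diet and 7 were called, or 22 and 11 without mouse 13. Of the 20 higher genes, 11 had a positive difference, or 7 without mouse 13, and 0 were called either way. The genes called on both diets were 15.2% of those called on HFD and 12.1% of those called on the control diet, or 23.9% and 2.34% without mouse 13. Over all 12382 genes tested on both diets, 57.4% had the same sign, or 52.9% without mouse 13. Genes within a diet share their mice and are not independent.

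Gprc5b, Cidec, Serpinb1a, Osbpl3 and Cfd had differences of -3.72, -2.56, -3.62, -3.11 and -8.64 on the control diet without mouse 13, beside -4.47, -2.81, -3.76, -2.96 and -7.82 on HFD. Anxa2 had 0.20 beside -2.68, and Pgk1 0.52 beside -1.06. Among the higher genes, Fnbp4 had -0.25 beside 0.72 and Pkig -0.44 beside 0.79. The test of the difference between diets in 1 model of 39 mice called 0 of the 46 genes, with the smallest edgeR adjusted p at 0.0902 among the lower and 0.0532 among the higher genes, so that none was shown to depend on diet.

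**Figure D5:**
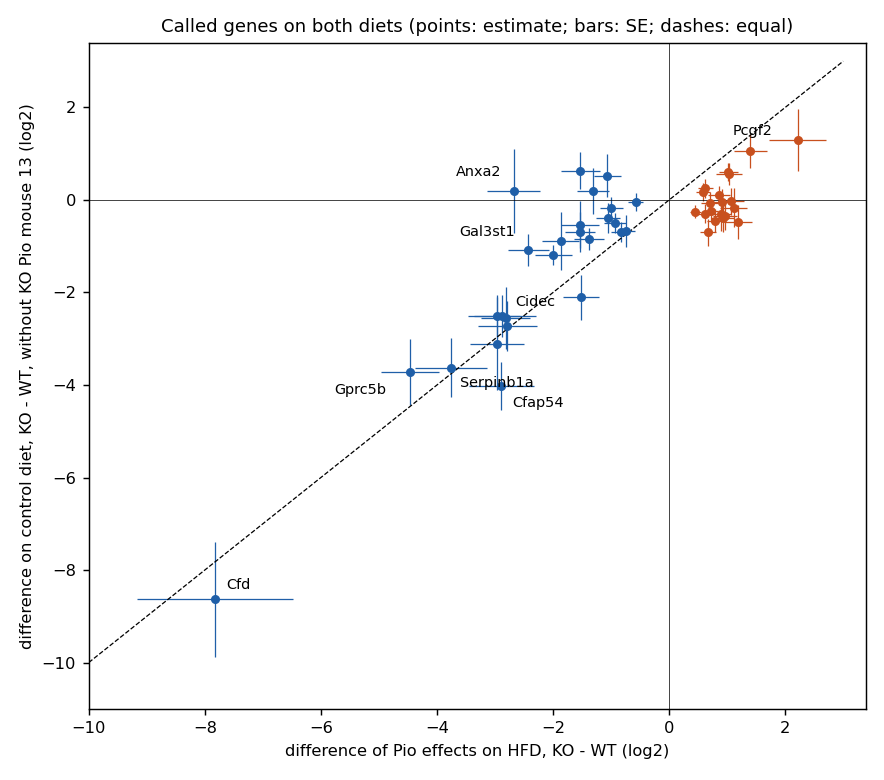
Difference of Pio effects (KO minus WT, log2, bars are SE) on HFD (horizontal axis) and on the control diet without KO Pio mouse 13 (vertical axis) for the 46 genes called on HFD, with equal differences on the dashed line. Blue lower genes such as Cidec, Serpinb1a and Cfd lie close to the line, Anxa2 lies near 0 on the control diet, and the 20 orange higher genes lie below the line.

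Over all genes, the test of the difference between diets called 1 gene in 40 mice and 8 in 39. Cyp7a1, the rate-limiting enzyme of bile acid synthesis, was called in both and is named here after its values were seen. On HFD it stood at 60.8, 65.5, 22.1, 42.5 and 65.7 CPM in WT HFD and 35.1, 31.5, 20.7, 34.8 and 27.4 CPM in WT HFD-Pio mice, and at 150, 318, 347, 50.7 and 147 CPM in KO HFD and 226, 211, 255, 157 and 295 CPM in KO HFD-Pio mice. The groups overlapped within each genotype, and the difference of 0.95 ± 0.53 was not called (edgeR adjusted p = 0.392). On the control diet its Pio effect was 2.29 ± 0.42 in WT and -1.46 ± 0.41 in KO mice, a difference of -3.76 ± 0.59 (edgeR adjusted p = 0.0102). The HFD difference exceeded that on the control diet by 4.73 ± 0.81 (adjusted p = 0.0123), or by 4.54 ± 0.81 (adjusted p = 0.0358) without mouse 13.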

How the data were processed

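Liver RNA was sequenced from 40 mice, and 2 deposited tables, for WT and KO mice, hold read counts per gene. According to the submitters' processing notes and the study's methods, the authors aligned poly-A RNA reads with STAR 2.0.4b to GRCm38 and counted them with featureCounts 1.4.5 of Subread. The deposited GC content of each gene is in percent. The strand setting is not given in the sources used here, nor are the exons removed by Cre resolved.

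The tables were joined on Ensembl gene IDs (40594 genes in both), and 355 ribosomal RNA genes were removed, as were 27762 genes that did not reach 1 CPM in at least 5 of the 20 HFD mice. Total counts per mouse are in the opening of the results. edgeR 4.0.16 (R 4.3.3) was fitted to the 20 HFD mice with TMM and robust quasi-likelihood, 1 mean per group and 16 residual degrees of freedom, and genes were called at a Benjamini-Hochberg adjusted p of at most 0.05. Single groups of 5 against 5 were compared by exact 2-sided permutation of log2 CPM (prior count 2, 252 arrangements, smallest p 0.00794). Alternatives were all 40 or 39 mice, DESeq2 1.42.0, limma 3.58.1 with sample weights, other scaling and filters, and each mouse left out. Named genes were those the study names, up to 12 called genes per direction with the largest difference at a mean of at least 5 CPM in 1 genotype, and per list its called members or the member with the smallest p, with the other called genes added. The genes, lists and tests were chosen with earlier results of these data known. Upstream sequences came from RefSeq (GRCm38.p6). A few single-gene results are not reported here.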

Additional observations from a re-analysis of the deposited data

Results flagged for a closer look

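Single mice lay far from the other 4 of their group in 32 cases, tested in 4 groups for 62 named genes, by a gap of more than 0.71 of the range of the group. Chance gives about 1 in 20 groups, and genes of a mouse are not independent. KO HFD mouse 9 lay above the rest of its group in Cd36 (55 against 20.9 to 28 CPM), Fabp4 (30.9 against 6.82 to 9.73 CPM), Serpinb1a (7.19 against 1.12 to 1.8 CPM), Osbpl3 (3.44 against 1.1 to 1.51 CPM), Anxa2 (20.3 against 8.19 to 8.64 CPM), Ermp1 (55.4 against 30.6 to 35.2 CPM), Cdhr5 (113 against 77.5 to 84.3 CPM), Orm2 (2833 against 6.58 to 93.3 CPM), Col3a1 (42.1 against 22.8 to 26.9 CPM), Ccr2 (14.1 against 1.1 to 2.18 CPM), S100a8 (95.8 against 0.98 to 5.08 CPM) and below the rest of its group in Fitm2 (29 against 37.9 to 40.4 CPM), Hadhb (11.6 against 17 to 18.8 CPM). WT HFD mouse 829 lay above the rest of its group in Mogat1 (2.24 against 0.6 to 0.891 CPM), Pcgf2 (55.1 against 22.6 to 31.7 CPM), Gps2 (76.9 against 35.2 to 43.3 CPM), Orm2 (23.8 against 3.42 to 7.67 CPM), Per1 (323 against 71.2 to 87.3 CPM). WT HFD mouse 827 lay above the rest of its group in Cfd (38.1 against 3.04 to 6.26 CPM), Fabp4 (37.3 against 3.19 to 9.33 CPM), Col14a1 (38.7 against 27.9 to 29.9 CPM), Cidea (1.74 against 0.713 to 0.848 CPM). KO HFD-Pio mouse 20 lay above the rest of its group in Cidec (5.25 against 2.44 to 2.94 CPM), Myc (24.4 against 3.63 to 8.16 CPM) and below the rest of its group in Birc5 (0.432 against 1.41 to 1.77 CPM). KO HFD-Pio mouse 16 lay above the rest of its group in Atf4 (111 against 72.7 to 83.2 CPM) and below the rest of its group in Vnn1 (8.36 against 14.1 to 15.4 CPM). KO HFD mouse 10 lay above the rest of its group in Cela1 (106 against 5.39 to 27.8 CPM). KO HFD-Pio mouse 19 lay below the rest of its group in Fnbp4 (33.4 against 36.7 to 37.8 CPM). WT HFD mouse 828 lay above the rest of its group in Serpinb1a (3.86 against 1.23 to 1.5 CPM). WT HFD-Pio mouse 836 lay above the rest of its group in Orm2 (24.4 against 4 to 9.23 CPM). WT HFD-Pio mouse 838 lay above the rest of its group in Cela1 (15.7 against 7.88 to 9.61 CPM).

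The Pio effect on HFD differed between KO and WT mice for 46 genes. The difference between diets of that genotype difference was called in 40 mice for Cyp7a1 (4.73, log2, edgeR adjusted p = 0.0123) and in 39 mice for Cyp7a1 (4.54) and 7 others. These were Tnfaip2 (-2.05 ± 0.43, adjusted p = 0.0455), Swi5 (1.12 ± 0.23, adjusted p = 0.0432), Fbl (1.57 ± 0.31, adjusted p = 0.0391), Cyp2j6 (1.28 ± 0.24, adjusted p = 0.0369), Snrnp70 (1.16 ± 0.22, adjusted p = 0.0369), Gm14286 (-2.83 ± 0.57, adjusted p = 0.0391), Gm23119 (3.09 ± 0.62, adjusted p = 0.0391).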

How the results depend on the processing

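The number of genes called for the difference, 46 (26 lower and 20 higher), was 12 (12 lower and 0 higher) with all 40 mice in 1 model, 21 (18 lower and 3 higher) in 39 mice without KO Pio mouse 13, 27 (18 lower and 9 higher) without a filter on low counts, 22 (15 lower and 7 higher) with the filter applied in each genotype, 386 (182 lower and 204 higher) with limma and sample weights and 297 (142 lower and 155 higher) with DESeq2. It was 326 (149 lower and 177 higher) without WT HFD mouse 829 and KO HFD mouse 9, chosen after seeing the data, 43 with median-of-ratios size factors and 45 with TMM within each table. The causes were not tested. With each mouse left out the totals ranged from 15 to 133, the lower genes from 12 to 71 and the higher genes from 3 to 72. The total was above 46 without WT HFD mice 826, 829 and 830 (68, 130 and 133), WT HFD-Pio mouse 838 (81) and KO HFD mouse 9 (99), and at most 33 without any other. Genes called in WT mice, 1547, were 140 with all 40 mice but 1501 in 39 mice without KO Pio mouse 13. They were 945 without a filter, and 857 to 1900 with a mouse left out. In KO mice they were 0, 2 with all 40 mice, 1 with limma, and 0 with any mouse left out. Of the 46 genes, all were called by limma, by DESeq2 and without mice 829 and 9, and 5 lower genes under all 9 of these alternatives. Gprc5b, Cfd, Cfap54 and Bhlhb9 were called in all 8 that tested them, as they did not pass the filter applied in each genotype. Among uncalled genes the sign turned for Per1 (-0.00087 to 0.84 with a mouse left out, -0.00087 without WT HFD mouse 829), S100a8 (-2.54 to 1.01 with a mouse left out, 0.62 with limma, 1.01 without KO HFD mouse 9 and 1.24 without mice 829 and 9) and Cela1 (-0.81 to 0.37 with a mouse left out, 0.37 without KO HFD mouse 10). No paired analysis was possible because each mouse number occurs in 1 group only. The results of genes such as Cidea and Mogat1 are limited by the few counts of these genes in KO mice.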
